A study of Hydra vulgaris with 12 samples.

Results

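Capless RNA was set against Hyli sense piRNA, transcript by transcript, in wild-type Hydra vulgaris of the AEP strain. A transcript entered when it had at least 10 CPM (counts per 1000000 of the column) of capless RNA in the wild-type degradome library or at least 10 CPM of sense small RNA in the wild-type Hyli immunoprecipitate (IP), each column being scaled to its own total. Of 38747 transcripts, 5964 entered. They were divided by the antisense small RNA of the wild-type Hywi IP into 1819 transcripts under 1 CPM, 735 with 1 to 10 CPM, 1701 with 10 to 100 CPM and 1709 over 100 CPM. The comparison asks which cleaved RNA also appears as Hyli piRNA.

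PIWI proteins carry piRNAs, small RNAs that guide them to matching transcripts, above all those of transposons, and in many animals they keep transposons silent in the germ line. Hydra has a pair of cytoplasmic PIWI proteins, Hywi and Hyli, which are also present in its somatic stem cells. In the ping-pong cycle, a PIWI protein guided by an antisense piRNA cuts the target RNA, and the cut end can be taken up by the partner protein as a sense piRNA. A cut RNA has no 5′ cap, so a degradome library, in which the 5′ adapter is ligated without removing caps, collects such ends together with those of ordinary decay.

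The series held 12 libraries of whole animals, cultured at 18 °C. The degradome library came from poly(A)-enriched RNA of 20 wild-type animals, and the Hywi and Hyli IPs came from 225 wild-type animals each. A matching set of 1 degradome and 2 IP libraries came from colchicine-treated animals of a cnnos1::GFP transgenic line, labelled as depleted of interstitial cells, so that drug and transgene go together there. The mRNA libraries were made from pools of 10 hatchlings 4 days after hatching, 3 from offspring that carried a hywi hairpin transgene expressed in epithelial stem cells and 3 from wild-type siblings without it. Because tissue was whole animals, fewer cells of a type and less RNA per cell cannot be told apart. The transcripts carried names without gene symbols, so neither hywi itself nor any cell type marker could be looked up.

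Each IP and degradome condition had 1 library, so comparisons among them have no replicate check. Shares are therefore given with 95% Wilson intervals, which cover counting error over transcripts only. The wild-type degradome held 765341 estimated counts, so that 10 CPM stood for 7.65 counts and the floor of 3 counts for 3.92 CPM. The Hyli sense column held 28779350 counts, where 10 CPM stood for 287.8 counts. The capless value was thus the less precise of the pair in nearly every transcript.

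Transcripts with at least 10 CPM of antisense Hywi piRNA nearly always had Hyli sense piRNA wherever they had capless RNA. Those under 1 CPM mostly did not at the minimum of 10 CPM. At least 10 CPM of capless RNA was found for 5295 transcripts (13.7% of all 38747), and at least 10 CPM of Hyli sense piRNA for 4424 (11.4%). Of the 5295 capless transcripts, 3755 had Hyli sense piRNA as well (70.9%). With Hywi antisense piRNA under 1 CPM, 384 of 1679 capless transcripts had it, a share of 22.9% (95% interval 20.9% to 24.9%). With 1 to 10 CPM, the share was 71.8% (427 of 595, 68.0% to 75.2%). With 10 to 100 CPM it was 95.8% (1356 of 1416, 94.6% to 96.7%). Over 100 CPM it was 98.9% (1588 of 1605, 98.3% to 99.3%). These intervals did not overlap, but they treat transcripts as independent, and the same levels chose the transcripts. They are therefore no test of the difference between strata. With a minimum of 1 CPM, under 1 count in the degradome, the lowest share was 54.6% and the highest 99.5%.

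In finer steps of Hywi antisense piRNA the share changed most around 1 CPM. It was 17.4% of the 115 capless transcripts without a single antisense Hywi count and 19.8% of the 509 with 0.1 to 0.3 CPM. From 0.3 to 1 CPM it was 32.8%, and from 1 to 3 CPM 62.4%. From 3 to 10 CPM it reached 78.2%, from 10 to 30 CPM 92.9%, and from 30 to 100 CPM 97.4%. All 606 transcripts with 300 to 1000 CPM had Hyli sense piRNA, against 145 of the 150 at 1000 CPM or more.

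**Figure D1:**
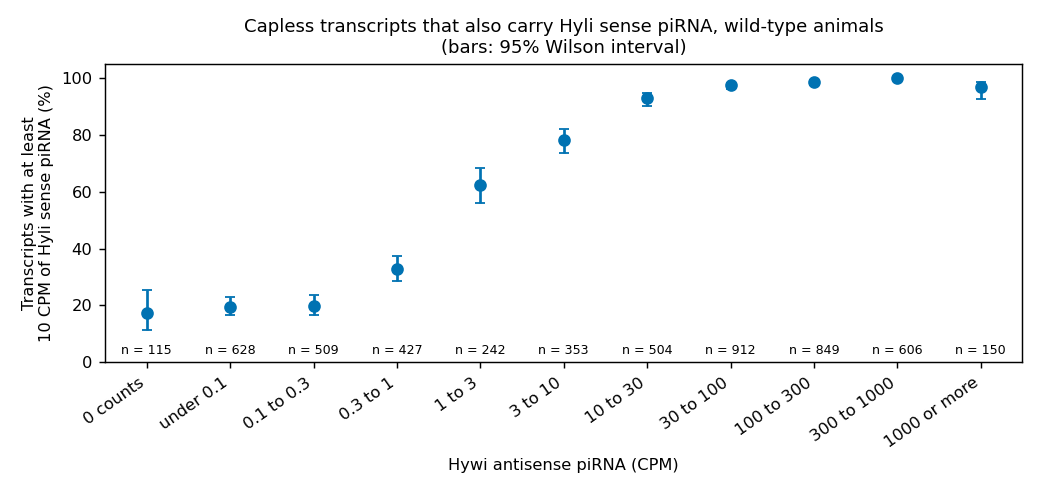
Share of capless transcripts (at least 10 CPM of capless RNA) that also had at least 10 CPM of Hyli sense piRNA (vertical axis, %), by Hywi antisense piRNA (horizontal axis, CPM) in wild-type animals, 1 library of each kind. Points are shares, bars 95% Wilson intervals and n the capless transcripts in each step; the share lies at 17.4% to 19.8% in the lowest 3 steps and at 92.9% or more from 10 CPM upwards.

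Read in the other direction, most Hyli sense piRNA lay on transcripts with capless RNA in every stratum. Capless RNA of at least 10 CPM was found for 73.3% of the 524 Hyli sense transcripts with Hywi antisense piRNA under 1 CPM. It was found for 75.3% of 567 with 1 to 10 CPM, 82.6% of 1641 with 10 to 100 CPM and 93.9% of 1692 over 100 CPM. The 669 transcripts with Hyli sense piRNA alone were close to both limits, with medians of 6.53 CPM of capless RNA and 14.5 CPM of Hyli sense piRNA. Capless RNA was at 0 in only 4 of all 4424 Hyli sense transcripts and at or under 3 counts in 167. In the others it was above 3 counts, and in those 167 its absence could not be judged at this depth.

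The 1540 transcripts with capless RNA alone were of another kind. Their medians were 22.2 CPM of capless RNA and 2.02 CPM of Hyli sense piRNA, and 1295 of them had Hywi antisense piRNA under 1 CPM. The floor of 3 counts in the Hyli sense column was 0.104 CPM, well below that median. In 35 of them the Hyli sense count was 0, of which 34 had Hywi antisense piRNA under 1 CPM and 1 had 1 to 10 CPM.

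The amounts, too, went together most closely where Hywi antisense piRNA was abundant. Spearman's rank correlation of capless with Hyli sense CPM across transcripts was 0.11 under 1 CPM of Hywi antisense piRNA, 0.50 at 1 to 10 CPM, 0.86 at 10 to 100 CPM and 0.97 over 100 CPM (n = 1819, 735, 1701 and 1709). Among transcripts with at least 10 CPM in both libraries it was 0.39, 0.62, 0.86 and 0.97 in the same order (n = 384, 427, 1356 and 1588). Within narrower ranges of capless RNA it was lower in the upper strata. At 10 to 30 CPM of capless RNA it was 0.01, 0.23, 0.58 and 0.62. At 30 to 100 CPM it was 0.26, 0.33, 0.64 and 0.76, and at 100 to 300 CPM 0.12, 0.34, 0.57 and 0.76. At 300 CPM or more it was 0.62, 0.71, 0.66 and 0.89. These are descriptions: the points share their libraries, and related transcripts share reads that map to several of them. With the transcripts whose capless and Hyli sense counts were both whole numbers to within 0.01, the correlation was 0.09, 0.34, 0.79 and 0.97 (n = 1549, 382, 752 and 833).

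**Figure D2:**
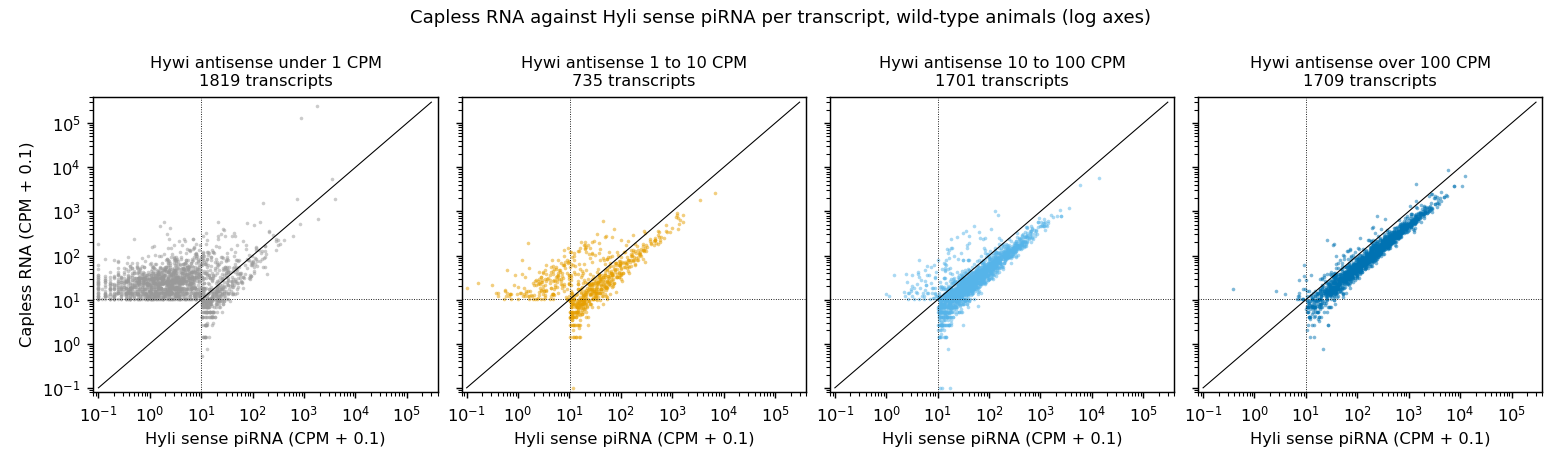
Capless RNA (vertical, CPM + 0.1, log axis) against Hyli sense piRNA (horizontal, CPM + 0.1, log axis) in wild-type animals, 1 point per transcript and 1 panel per stratum of Hywi antisense piRNA. The solid line marks equal CPM and the dotted lines mark 10 CPM; the points form a narrow band below the line over 100 CPM, where Spearman's correlation was 0.97, and scatter to the upper left under 1 CPM, where it was 0.11.

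Over 100 CPM of Hywi antisense piRNA, the ratio of capless RNA to Hyli sense piRNA varied little between transcripts while both ranged over several orders of magnitude. The median log2 ratio of capless to Hyli sense piRNA, each with 1 CPM added, was -0.88, and the middle 50% of the 1709 transcripts spanned 0.52 log2 units. Capless RNA there reached 8737 CPM and Hyli sense piRNA 12604 CPM. At 10 to 100 CPM the median was also -0.88, with a span of 0.79. At 1 to 10 CPM the median was -0.56 and the span 2.75, and under 1 CPM the median was 2.67 and the span 2.78. The size of the upper 3 medians depends on the totals by which the columns were scaled. With median-ratio scaling they were 0.15 at 1 to 10 CPM, -0.29 at 10 to 100 CPM and -0.30 over 100 CPM, and without the 2 most abundant capless transcripts 0.35, -0.19 and -0.20, so that the first changed sign.

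Capless RNA was at least 4-fold higher than Hyli sense piRNA in 1371 of all 5964 transcripts (23.0%) and at least 4-fold lower in 100 (1.68%). Under 1 CPM of Hywi antisense piRNA it was higher in 1162 of 1819 (63.9%), against 153 of 735 (20.8%) at 1 to 10 CPM, 50 of 1701 (2.94%) at 10 to 100 CPM and 6 of 1709 (0.351%) over 100 CPM. It was 4-fold lower in 14, 25, 47 and 14 transcripts of the 4 strata in that order. In 68 of these 100, capless RNA was at or under 3 counts, so most of them rest on a capless value that the degradome depth could hardly resolve. Under other scalings the 100 became 9 to 31.

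**Figure D3:**
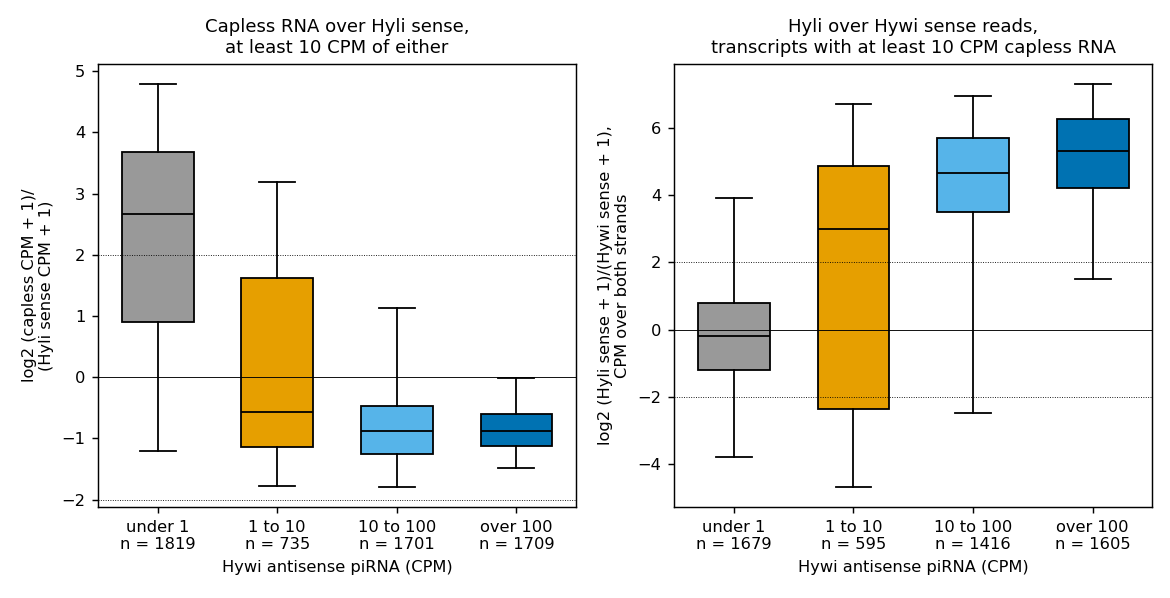
Left, log2 ratio of capless RNA to Hyli sense piRNA (CPM + 1) for all 5964 transcripts; right, log2 ratio of Hyli sense to Hywi sense reads (scaled to each IP's CPM over both strands, + 1) for the 5295 transcripts with at least 10 CPM of capless RNA, by stratum of Hywi antisense piRNA. Boxes hold the middle 50% of transcripts, lines in boxes are medians, whiskers run from the lowest 5% to the highest 5% and dotted lines mark 4-fold; the left medians lie at 2.67, -0.56, -0.88 and -0.88, the right ones at -0.19, 2.99, 4.66 and 5.31.

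The difference between strata was also present among transcripts with like amounts of capless RNA. At 10 to 30 CPM of capless RNA, Hyli sense piRNA was found for 16.5%, 61.6%, 92.9% and 95.2% of transcripts from the lowest to the highest Hywi antisense stratum (n = 1020, 294, 623 and 310). At 30 to 100 CPM the shares were 26.8%, 73.2%, 96.9% and 99.6% (n = 555, 194, 512 and 509). At 100 to 300 CPM they were 59.3%, 96.4%, 100% and 100% (n = 81, 84, 224 and 468). At 300 CPM or more, 82.6% of the 23 transcripts with Hywi antisense piRNA under 1 CPM had Hyli sense piRNA. Most transcripts with abundant capless RNA thus passed the minimum of Hyli sense piRNA in every stratum, though not in the same proportion.

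That proportion stayed apart at high capless levels. At 100 to 300 CPM of capless RNA, the median Hyli sense level was 13.4 CPM under 1 CPM of Hywi antisense piRNA and 166.9, 279.0 and 303.7 CPM in the higher strata. At 300 CPM or more it was 106.1 CPM under 1 CPM and 980.2, 877.4 and 1049 CPM in the higher strata. The span of the middle 50% of log2 ratios over 100 CPM of Hywi antisense piRNA was 0.66 at 10 to 30 CPM of capless RNA and 0.39 at 300 CPM or more, where the median transcript had 402.8 capless counts.

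The strata differed strongly in mRNA, which did not enter their definition. mRNA levels are the mean CPM of the 3 wild-type sibling libraries, per transcript and not per length. Capless transcripts with Hywi antisense piRNA under 1 CPM had a median of 86.1 CPM of mRNA, and 85.6% of them had at least 10 CPM. In the higher strata the median was 0.818, 0.643 and 1.66 CPM, and 19.0%, 2.68% and 6.85% had at least 10 CPM. Capless transcripts with Hywi antisense piRNA under 1 CPM were thus mostly those of abundant mRNAs.

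At like mRNA levels, capless RNA was more frequent in each higher stratum of Hywi antisense piRNA up to 100 CPM of mRNA. Of all transcripts with mRNA under 1 CPM, 0.694% of 18007 with Hywi antisense piRNA under 1 CPM had at least 10 CPM of capless RNA, against 14.0% of 2358, 42.6% of 2107 and 71.8% of 774 in the higher strata. With 1 to 10 CPM of mRNA the shares were 2.84% of 4114, 31.9% of 479, 67.9% of 707 and 87.7% of 1071. With 10 to 100 CPM of mRNA they were 9.31% of 7015, 31.2% of 237, 71.7% of 46 and 96.4% of 112. With 100 CPM or more of mRNA, 47.5% of 1651 transcripts under 1 CPM of Hywi antisense piRNA had capless RNA. At 1 to 10 CPM of Hywi antisense piRNA the share was 65% of 60, and the 2 highest strata held 7 and 2 transcripts.

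**Figure D4:**
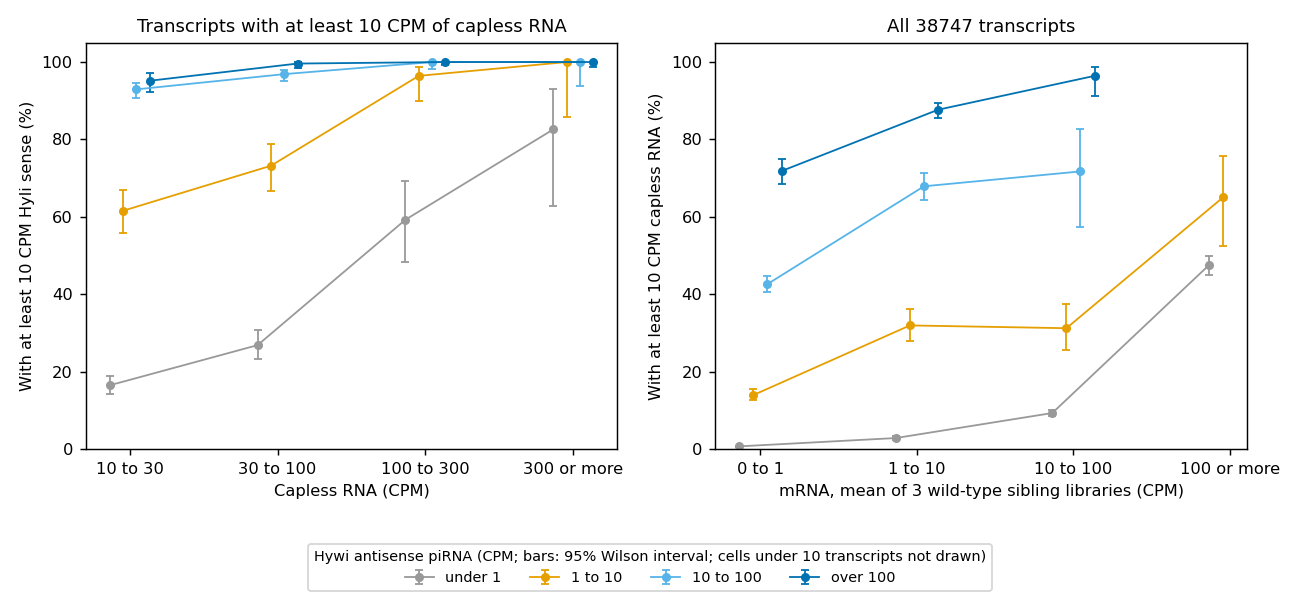
Left, share of capless transcripts with at least 10 CPM of Hyli sense piRNA (%) by capless RNA (CPM); right, share of all 38747 transcripts with at least 10 CPM of capless RNA (%) by mRNA (mean CPM of 3 wild-type sibling libraries), 1 line per stratum of Hywi antisense piRNA. Bars are 95% Wilson intervals and steps with under 10 transcripts are not drawn; at 10 to 30 CPM of capless RNA the shares run from 16.5% to 95.2% and at mRNA under 1 CPM from 0.694% to 71.8%.

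Over all strata together, capless transcripts with Hyli sense piRNA had less mRNA than those without it, with medians of 1.24 and 60.7 CPM. Within the strata this did not hold throughout. From the lowest to the highest, the medians were 115.1, 0.741, 0.630 and 1.67 CPM with Hyli sense piRNA. Without it they were 79.8, 0.906, 0.762 and 0.521 CPM, so the order was the other way under 1 CPM and over 100 CPM. Over 100 CPM this rests on only 17 transcripts without Hyli sense piRNA, against 1588 with it. At like mRNA levels the shares with Hyli sense piRNA still differed between the strata. Among those with mRNA under 1 CPM, Hyli sense piRNA was found for 24.8%, 72.9%, 96.2% and 97.8% from the lowest to the highest Hywi antisense stratum (n = 125, 329, 898 and 556). Among those with mRNA of 10 to 100 CPM it was found for 14.5%, 66.2%, 93.9% and 99.1% (n = 653, 74, 33 and 108). With mRNA of 1 to 10 CPM the shares were 44.4%, 80.4%, 95% and 99.6% (n = 117, 153, 480 and 939), and with 100 CPM or more 26.3% and 38.5% in the lower strata (n = 784 and 39). Within the 2 lower strata the share thus varied with mRNA, between 14.5% and 44.4% and between 38.5% and 80.4%. The ratio of capless CPM to mRNA CPM at 10 to 100 CPM of mRNA had medians of 0.497, 1.01, 4.90 and 14.9 in these strata. Capless RNA and mRNA came from different animals and library kits, so only the order of these ratios can be read.

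Sense reads of the Hywi IP, which the choice of transcripts did not use, were set against those of the Hyli IP. Hyli sense reads also entered that choice and differed between the strata, so part of the difference in this ratio is built in. Under 1 CPM of Hywi antisense piRNA, sense reads were at least 4-fold more frequent in the Hyli IP than in the Hywi IP for 230 of 1679 capless transcripts (13.7%), and at least 4-fold less frequent for 264 (15.7%), with a median log2 ratio of -0.19. They were at least 4-fold more frequent in the Hyli IP for 327 of 595 (55.0%) at 1 to 10 CPM, 1236 of 1416 (87.3%) at 10 to 100 CPM and 1504 of 1605 (93.7%) over 100 CPM. The median log2 ratio over 100 CPM was 5.31.

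Of the 384 transcripts with capless RNA and Hyli sense piRNA but Hywi antisense piRNA under 1 CPM, 219 had at least 4-fold more sense reads in the Hyli IP than in the Hywi IP. These 219 had a median log2 ratio of capless to Hyli sense piRNA of -0.48, a correlation between both of 0.76 and a median of 49.0 CPM of mRNA. Another 141 had sense reads within 4-fold in both IPs, with a ratio of 0.96, a correlation of 0.33 and 520.2 CPM of mRNA. The other 24 had at least 4-fold more sense reads in the Hywi IP and a ratio of 2.62. In ratio and correlation the 219 stood closer to the strata rich in Hywi antisense piRNA than the others did. Of these 219, 12 had no antisense Hywi count at all. Their median mRNA lay nearer to the 86.1 CPM of all capless transcripts under 1 CPM. At 10 to 100 CPM and over 100 CPM of Hywi antisense piRNA that median was 0.643 and 1.66 CPM. Hyli sense reads enter both the division and the ratio, so part of its difference is built in, while mRNA enters neither.

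Many of the capless transcripts without Hyli sense piRNA had their piRNAs the other way round, with over 50% of Hyli reads antisense and under 50% of Hywi reads antisense. This held for 381 of 1295 capless transcripts without Hyli sense piRNA under 1 CPM of Hywi antisense piRNA, against 2 of 384 with it. It held for 120 of 168 against 47 of 427 at 1 to 10 CPM, and for 34 of 60 against 57 of 1356 at 10 to 100 CPM. Over 100 CPM it held for 0 of 17 against 12 of 1588. The Hyli share uses the Hyli sense reads that define the groups, so part of this difference is built in. The Hywi share does not use them, but Hywi antisense reads define the strata and limit it there. The median share of Hywi reads that were antisense was 3.43% in capless transcripts without Hyli sense piRNA and 3.13% in those with it under 1 CPM. It was 9.12% against 80.2% at 1 to 10 CPM, 42.5% against 98.2% at 10 to 100 CPM and 99.7% against 99.3% over 100 CPM. The Hywi share thus differed in the middle strata and hardly in the lowest, which held most of these transcripts.

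Single transcripts show these patterns at their ends. The highest Hyli sense level belonged to t6295aep, with 5616 CPM of capless RNA and 13519 CPM of Hyli sense piRNA at 19.3 CPM of Hywi antisense piRNA. Next came t28406aep with 6238 CPM of capless RNA and 12604 CPM of Hyli sense piRNA, and t27869aep with 3849 and 10863 CPM, both over 100 CPM of Hywi antisense piRNA. In all 3, Hyli sense piRNA was 2.02-fold to 2.82-fold the capless RNA. Their wild-type sibling mRNA averaged 72.8 ± 7.89 CPM for t6295aep, 7.06 ± 0.398 CPM for t28406aep and 0.645 ± 0.213 CPM for t27869aep (SD, n = 3).

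A like proportion was present at high levels in the lower strata. With Hywi antisense piRNA at 1 to 10 CPM, t21269aep had 2676 CPM of capless RNA and 6749 CPM of Hyli sense piRNA, and t34371aep had 1856 and 3522 CPM. Under 1 CPM, t17095aep had 1940.3 CPM of capless RNA and 4046 CPM of Hyli sense piRNA. Scaled to each IP's total over both strands, its sense reads were 2875 CPM in the Hyli IP and 13.3 CPM in the Hywi IP. By contrast, t30823aep had 5439 CPM of capless RNA and 3469 CPM of Hyli sense piRNA, and its mRNA averaged 971.6 CPM. Scaled over both strands, its sense reads were 2465 CPM in the Hyli IP and 3176 CPM in the Hywi IP. At 10 to 100 CPM, t6036aep had 3996 and 5932 CPM, a log2 ratio of -0.57 that was 0.02 with median-ratio scaling and 0.12 without the 2 most abundant capless transcripts.

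The degradome was dominated by a pair of transcripts without antisense Hywi piRNA. t22393aep had 250100 CPM of capless RNA, against 1815 CPM of Hyli sense piRNA, and t14592aep had 131595 CPM, against 873.1 CPM. Together they made up 38.2% of all capless counts but 0.269% of Hyli sense counts, and neither had a single antisense Hywi count. The stratum under 1 CPM held 47.1% of capless counts and 4.59% of Hyli sense counts, and the stratum over 100 CPM held 36.4% of capless counts and 67.0% of Hyli sense counts. Without this pair the capless shares were 14.4% and 58.8%. Leaving it out raises every other capless value by 0.69 on the log2 scale. The third highest capless transcript, t15838aep, had 8737 CPM of capless RNA, 5775 CPM of Hyli sense piRNA and 245.0 CPM of Hywi antisense piRNA.

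The largest ratios in the lowest stratum were those of t7899aep, with 570.7 CPM of capless RNA and 1.78 CPM of Hyli sense piRNA, and t5807aep, with 478.3 and 1.49 CPM. Their mRNA was low, at 1.12 ± 0.711 and 0.770 ± 1.06 CPM in wild-type siblings (SD, n = 3). At 1 to 10 CPM of Hywi antisense piRNA they were t30117aep, with 193.4 and 1.49 CPM, and t7436aep, with 81.0 and 1.08 CPM. These last had abundant mRNA, at 379.8 ± 167.8 and 832.0 ± 132.1 CPM.

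At 10 to 100 CPM the largest ratios belonged to t14690aep, with 36.6 CPM of capless RNA and 1.32 CPM of Hyli sense piRNA, and t30137aep, with 78.4 and 4.27 CPM. In both, Hyli reads were mostly antisense, at 97.8% and 90.8%. Over 100 CPM, t32138aep had 226.0 CPM of capless RNA and 25.4 CPM of Hyli sense piRNA, and 93.1% of its Hyli reads were antisense. t11462aep had 17.0 CPM of capless RNA, or 13 counts, with 0.278 CPM of Hyli sense piRNA and 145.0 CPM of Hywi antisense piRNA. It thus had almost no Hyli sense reads, and 91.4% of its Hyli reads were antisense.

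At the low end of the ratio, capless RNA was at or under 3 counts, and no fold is given. Hyli sense piRNA was 12.9 CPM for t3064aep and 10.5 CPM for t32357aep under 1 CPM of Hywi antisense piRNA, and 11.8 CPM for t3589aep and 16.1 CPM for t3265aep at 1 to 10 CPM. It was 17.4 CPM for t6196aep and 11.8 CPM for t30821aep at 10 to 100 CPM, and 21.8 CPM for t35614aep and 27.0 CPM for t7270aep over 100 CPM. Capless RNA was at 0 in t3589aep, t6196aep and t30821aep. None of these 8 had abundant Hyli sense piRNA.

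Nearest to the limit of 10 CPM, t17001aep (3.92 CPM of capless RNA, 10.0 CPM of Hyli sense piRNA) and t22510aep (10.0 and 9.86 CPM) lay inside it. t15837aep (2.61 and 9.99 CPM) and t30372aep (7.84 and 9.97 CPM) lay outside.

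The libraries of colchicine-treated animals gave a second, shallower view of the same 5964 transcripts. The degradome there held 176897 counts, so that 3 counts stood for 17.0 CPM, and 44.9%, 33.6%, 32.6% and 58.7% of transcripts reached 3 counts from the lowest to the highest Hywi antisense stratum of wild-type animals. The correlation of capless RNA with Hyli sense piRNA in colchicine-treated animals was 0.46 under 1 CPM, 0.37 at 1 to 10 CPM, 0.40 at 10 to 100 CPM and 0.56 over 100 CPM. In wild-type animals it was 0.11, 0.50, 0.86 and 0.97. The median log2 ratio was 0.00, -1.32, -2.26 and -2.11 in colchicine-treated animals, against 2.67, -0.56, -0.88 and -0.88 in wild-type animals. The steady rise of the correlation over the strata was thus not seen in colchicine-treated animals. It was higher than in wild-type animals under 1 CPM and lower in the other strata. The transcripts were chosen by their wild-type levels, so the wild-type and colchicine correlations are not a like comparison. Under 1 CPM the wild-type value was 0.39 among transcripts with at least 10 CPM in both libraries. The part of this choice in the difference was not tested. The lower correlation in the richest stratum goes with the lower depth, and the part of depth in the result was not tested.

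Hyli sense piRNA of at least 10 CPM was found in colchicine-treated animals for 41.1% of the transcripts under 1 CPM of Hywi antisense piRNA in wild-type animals, 50.2% at 1 to 10 CPM, 67.4% at 10 to 100 CPM and 87.8% over 100 CPM. Hywi antisense piRNA of at least 10 CPM was found there for 36 of 1819, 253 of 735, 1051 of 1701 and 1624 of 1709. The order of the strata in antisense Hywi piRNA was therefore also seen in these libraries, which had no part in choosing them. Single transcripts often moved: 54.5% of all lay in the same stratum in both Hywi IPs. From the lowest to the highest stratum these shares were 76.4%, 38.1%, 39.4% and 53.1%.

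Knockdown of hywi in epithelial stem cells asks whether the mRNA of these transcripts depends on Hywi. The quasi-likelihood test of edgeR, fitted over all 19683 transcripts tested, called 0 higher and 0 lower in knockdown hatchlings (0% and 0% of those tested; lowest adjusted p = 0.875). At an unadjusted p under 0.05 it had 577 higher and 141 lower over all transcripts. DESeq2 called 0 higher and 1 lower among the transcripts with capless RNA or Hyli sense piRNA, beside 1 and 1 over all 38747. With the replicate number as a block, edgeR called 231 higher (1.17%) and 18 lower (0.0914%) over all transcripts.

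Of the 5964 transcripts, 4884 passed the filter on low counts and could be tested. The blocked fit called 62 of them higher and 5 lower (1.27% and 0.102%). Those higher were 19 of 1726 under 1 CPM of Hywi antisense piRNA, 5 of 529 at 1 to 10 CPM (0.945%), 11 of 1149 at 10 to 100 CPM (0.957%) and 27 of 1480 over 100 CPM (1.82%). The lower 3 strata lie near the 1.17% over all transcripts and that over 100 CPM above it; the difference was not tested. DESeq2 with the block called 12, 2, 4 and 15 higher in the strata from lowest to highest. These were 0.660%, 0.272%, 0.235% and 0.878% of the transcripts in each, beside 0.361% of all 38747. No filter was applied before that fit, but DESeq2 gave transcripts with low mean counts no adjusted p. Those could not be called, yet they count in these shares. The filter of edgeR kept 19683 of the 38747 and 4884 of the 5964. The 0.361% and the shares of the strata therefore do not rest on like sets of transcripts. The 5 lower ones all had Hywi antisense piRNA under 10 CPM. Without pair 2 the blocked fit called 107 higher and 41 lower (2.16% and 0.827%, beside 1.79% and 0.527% over all transcripts tested). Without pair 3 it called 87 and 14 (1.74% and 0.280%, beside 1.81% and 0.258%). Without pair 1 it called 62 and 4 (1.28% and 0.0825%, beside 1.12% and 0.0816%).

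Small shifts were more widespread than calls. Without the block, the median log2 fold change of knockdown over wild-type sibling was -0.05 under 1 CPM of Hywi antisense piRNA, 0.16 at 1 to 10 CPM, 0.22 at 10 to 100 CPM and 0.24 over 100 CPM, beside 0.02 over all transcripts tested. Of the transcripts under 1 CPM 41.8% lay above 0, of those over 100 CPM 88.0%, and of all 53.0%. Scaled by library totals, the median under 1 CPM was 0.04 with 57.5% above 0, and that of all transcripts 0.10, so the sign under 1 CPM depends on the scaling; relative to all transcripts it was lower either way. Over 100 CPM it was then 0.33. With TMM scaling, the median under 1 CPM was -0.07, -0.03 and -0.08 in pairs 1, 2 and 3. Over 100 CPM it was 0.18, 0.11 and 0.44, so it was above 0 in each pair and differed in size between them.

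**Figure D5:**
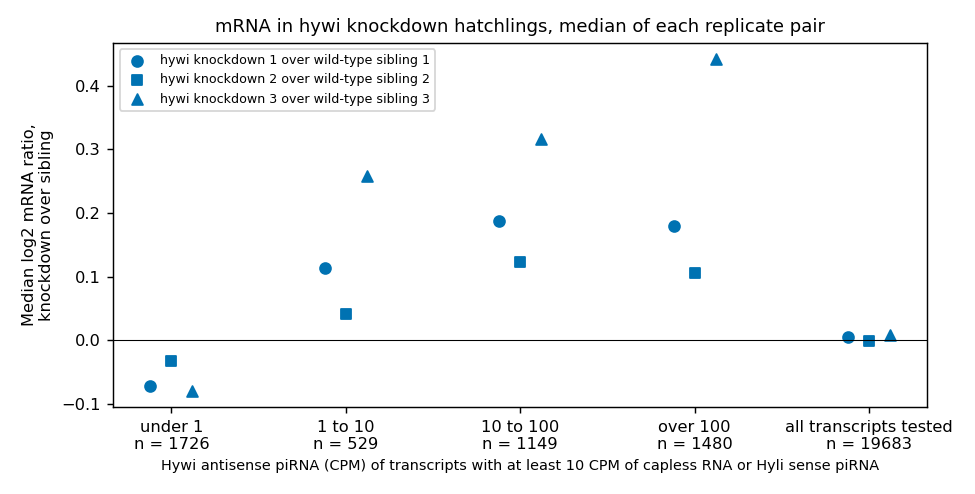
Median log2 ratio of mRNA in hywi knockdown over wild-type sibling hatchlings (vertical), for each of 3 replicate pairs (symbols), by stratum of Hywi antisense piRNA and over all 19683 transcripts tested (horizontal). The 3 pairs lie at -0.07, -0.03 and -0.08 under 1 CPM and at 0.18, 0.11 and 0.44 over 100 CPM.

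Among the transcripts named here, the blocked fit called t6295aep, the one with the most Hyli sense piRNA. Its mRNA was 123.9, 168.6 and 149.3 CPM in knockdown hatchlings 1 to 3, against 63.7, 77.9 and 76.7 CPM in wild-type siblings 1 to 3. The groups did not overlap. The log2 fold change was 0.93 in the blocked fit of edgeR (adjusted p = 0.000538) and 0.94 without the block (adjusted p = 0.875), higher in 3 of 3 pairs. No other transcript named here passed in either of these fits.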

How the data were processed

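The deposited tables gave each transcript an estimated count that need not be whole and was not scaled, per the file headers for the degradome and IP tables and from the values for the mRNA table. Small RNA was counted apart by strand, and the degradome on the sense strand. The submitters' processing notes name Trimmomatic 0.33, Bowtie 1.1.2, RSEM 1.2.31 and cutadapt without a role for each; the settings are not given in the sources used here. From 15.2% to 20.9% of sense values and 84.1% to 93.6% of antisense values above 0 were not whole, as when reads that map to several transcripts are shared out, so related transcripts are not independent. All 16 value columns of the 3 tables were matched to the 12 samples by name. Of the 38747 transcript names, 0 matched the reference table, so no gene names, lengths or sequences are given.

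CPM used each column's own total, and ratios a pseudocount of 1 CPM. Limits of strata were 1, 10 and 100 CPM; a level at the upper limit of 10 to 100 CPM belonged to that stratum. Named transcripts were, in each stratum, those with the 2 highest and 2 lowest ratios and the 2 highest in both libraries, then the 3 highest in capless RNA, the 3 highest in Hyli sense piRNA and those nearest to 10 CPM. Members, strata and rules were chosen with earlier results of these data known. For sense reads of both IPs, counts were scaled to each IP's total over both strands.

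mRNA counts (22236877 to 27551244 per library) were rounded, filtered with filterByExpr, scaled by TMM and tested with edgeR 4.0.16 (two-sided, Benjamini-Hochberg, threshold 0.05), with DESeq2 1.42.0 as an alternative, in R 4.3.3. Shares and ratios used Python 3.11.15. The steps were tested on simulated data. The labels give mRNA replicates the numbers 1 to 3 but do not define them; across transcripts, same-numbered libraries deviated together from their group means (correlations of 0.62, 0.27 and 0.30), so the numbers were taken to pair them. Unequal numbers reached 0.20, so pair 1 is the clearest. Nothing in the labels says that replicates came from separate cultures, so p-values measure the spread between these pools.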

Additional observations from a re-analysis of the deposited data

How the results depend on the processing

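The share of capless transcripts with Hyli sense piRNA was higher in each higher stratum of Hywi antisense piRNA under all 9 settings tried. The following values are given from the lowest to the highest stratum. With a minimum of 1 CPM the shares were 54.6%, 81.8%, 96.9% and 99.5%, and with median-ratio scaling 17.6%, 64.9%, 91.7% and 98.0%. With whole-number transcripts only they were 20.1%, 62.8%, 94.2% and 98.0%, and with limits of 2, 20 and 200 CPM 25.6%, 81.5%, 97.4% and 99.5%. With limits of 0.5, 5 and 50 CPM the lower 3 were 20.8%, 55.3% and 91.7%. Without the 2 highest capless transcripts the upper 3 were 64.0%, 92.0% and 97.9%. With a minimum of 50 CPM the middle strata had 67% and 93.6%. With totals over both strands the strata under 1 CPM and at 10 to 100 CPM had 18.7% and 93.0%. With strata from the colchicine-treated Hywi IP, those under 1, at 1 to 10 and over 100 CPM had 30.3%, 65.6% and 98.3%. The other settings lay inside the intervals given. Spearman's correlation ranged from 0.09 to 0.29, 0.34 to 0.68, 0.77 to 0.91 and 0.95 to 0.98. The median log2 ratio at 1 to 10 CPM changed sign, to 0.15 with median-ratio scaling, 0.35 without the 2 highest capless transcripts and 0.29 with limits of 0.5, 5 and 50 CPM. With median-ratio scaling the medians at 10 to 100 and over 100 CPM were -0.29 and -0.30, and without the 2 highest capless transcripts -0.19 and -0.20. Under 1 CPM the median ranged from 0.78 to 3.16.

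The count with Hyli sense piRNA at least 4-fold higher was the least stable. It was 324 with a minimum of 1 CPM, 14 with 50 CPM, 9 with median-ratio scaling, 13 with totals over both strands, 31 without the 2 highest capless transcripts and 58 with whole-number transcripts. It was 153 with a pseudocount of 0.1 CPM, 2 with 10 CPM, 1722 at 2-fold and 1 at 16-fold. The count with capless RNA higher was 298 with a minimum of 50 CPM, 378 with a pseudocount of 10 CPM and 331 at 16-fold. The cause was not tested. Of 228 ratios of named transcripts under other settings, 199 stayed within 1 log2 unit and 2 changed sign, both for t6036aep (0.02 with median-ratio scaling and 0.12 without the 2 highest capless transcripts).

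With the replicate block, edgeR called 62 of the transcripts higher and 5 lower in knockdown hatchlings (1.27% and 0.102%, beside 1.17% and 0.0914% over all tested). Without the block it called 0 and 0. DESeq2 called 33 higher and 12 lower with the block (0.553% and 0.201%, beside 0.361% and 0.119% of all 38747), and 1 lower without it. The shares with the block include transcripts to which DESeq2 gave no adjusted p. Leaving out single libraries without the block gave 0 calls in each of 6 fits. Leaving out 1 pair from the blocked fit, an alternative chosen after seeing the data, gave 62, 107 and 87 higher and 4, 41 and 14 lower without pairs 1, 2 and 3. Without pair 2 the most abundant capless transcripts were called lower in knockdown hatchlings (log2 fold change -0.90 for t22393aep and -0.70 for t14592aep), and without pair 1 t14592aep was called higher by 0.75, so neither has a stable direction. t6295aep was called in the blocked fits of edgeR, also without each pair, and of DESeq2, with log2 fold changes of 0.83 to 0.98. The depth of the degradome, 7.65 counts at 10 CPM, limits every capless value near the minimum.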
